A study of Homo sapiens with 4 samples.

Results

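The 37 mRNAs described here code for proteins of the large (60S) subunit of the human cytosolic ribosome. They were taken by symbol from a table of 19948 protein-coding genes, and all 37 were found. The samples were 4 libraries from HEK293T cells, a human embryonic kidney line that carries the SV40 large T antigen. All cells had received 100 µg/mL cycloheximide, an inhibitor of elongation that holds ribosomes on mRNA, for 10 min, and no other treatment is named in the labels. Their lysate was spun through a sucrose gradient of 10% to 50%, and RNA of 4 pools was enriched for capped ends with an immobilised mutant of the cap-binding protein eIF4E. Molecules with a poly(A) tail were then read directly as RNA on nanopores. The pools are free mRNA (no ribosome), monosome (a single ribosome), light polysome (few ribosomes) and heavy polysome (many ribosomes), with 1 library each.

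A ribosomal protein is needed in the same amount as its partners in the subunit, and cells adjust the output of all of them together. They do so mainly through the TOP (terminal oligopyrimidine) tract, a C at the cap followed by a run of further C and U, which the cap-binding repressor LARP1 recognises when the kinase mTORC1 is off. TOP mRNAs move between free particles and polysomes under this control, and the place of an mRNA in the gradient reflects how many ribosomes it carries. A short coding sequence has room for fewer ribosomes than a long one.

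The TOP tract can be read at the annotated start sites of the RefSeq promoter table (GRCh38.p14, the patch release of the hg38 build the counts were made on). For 30 of the 37 members the table has an entry. The search looked on the gene's own strand for a C at the first transcribed base followed by at least 4 further C or T. It was found for 21 of the 30 members (70%), in runs of 6 to 16 bases, against 5.14% of the 27305 genes in the table and 8.20% of the 6101 other tested genes. With a start allowed anywhere within 10 bases of the annotated one, 28 of 30 members and 38.4% of all genes had such a run. The sequences below are the 3 members that lay furthest toward the free library and the 3 that lay furthest toward the heavy polysomes, among members with an entry. Each shows 10 bases before and 20 bases after the annotated start, 5′ to 3′, with the pyrimidine run in capitals.
RPL29, chr3:51995876-51995905, minus strand: cagcccctttCTCTTCCggttctaggcgct
RPL12, chr9:127451387-127451416, minus strand: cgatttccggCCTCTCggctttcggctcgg
RPL37A, chr2:216498834-216498863, plus strand: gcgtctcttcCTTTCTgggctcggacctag
RPL7A, chr9:133348208-133348237, plus strand: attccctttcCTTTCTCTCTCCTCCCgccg
RPL4, chr15:66504836-66504865, minus strand: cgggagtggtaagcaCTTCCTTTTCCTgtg
RPL3, chr22:39319604-39319633, minus strand: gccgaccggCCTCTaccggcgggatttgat
In RPL4 the run begins at base 6 of the annotated transcript, and in RPL3 it begins 1 base before the start. By the strict definition the 3 members toward the free library and RPL7A thus had a run at the start, and RPL4 and RPL3 did not. The runs marked in RPL4 and RPL3 come from the looser search within 10 bases, which 38.4% of all genes meet. The 21 members with a run at the start had log2 ratios of heavy polysome to free (defined below) from -6.29 to -1.65 with a median of -3.72. The 9 without one (RPL3, RPL4, RPL6, RPL9, RPL10A, RPL15, RPL19, RPL27 and RPL32) lay from -4.86 to 0.00 with a median of -2.73. These ranges overlapped. The groups were not matched for protein length, which itself went with this ratio across the 37 members (Spearman's rho of 0.73). The group without a run held RPL4 (427 residues) and RPL3 (403), and also RPL27 (136) and RPL32 (135). Whether the medians differ apart from length was not tested. The annotated start may differ from the start used in these cells.

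Free mRNA gave the members 18.5% of its counts (18.3 to 18.6, a 95% Clopper-Pearson interval). The monosome share was 20.7% (20.6 to 20.8). In light polysomes they held 14.1% (14.0 to 14.1), and in heavy polysomes 10.4% (10.4 to 10.5). Their share was thus greatest in the monosome library. Library totals were 355509, 1329334, 1499401 and 1564531 counts in the same order, so the free library is the least precise. No pool had a replicate, so no difference can be set against a spread between samples, no p-value is given, and every interval covers counting error only. Shares do not give amounts: fewer molecules of a member and more of all other mRNAs in a pool cannot be told apart. Since each read stands for 1 RNA molecule, levels are given as CPM, the count scaled to the library total, and are not divided by transcript length. Of the 6 markers chosen for HEK293T cells, VIM had the most counts (850 over the 4 libraries) and PAX2 the fewest (6). The 8 markers of blood, liver, fibroblast, muscle and glial cells had 6 counts together, with PTPRC, CD3E, ALB, MYH7 and GFAP at 0.

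Single members differed far more in level than the list as a whole moved. In the free library the CPM ran from 5.63 for RPL26 to 14852 for RPL29, with a median of 4667. In the monosome library the range was 41.4 (RPL26) to 12419.7 (RPL13) with a median of 4798. In the light polysome library it was 20.7 (RPL26) to 9613 (RPL36) with a median of 3263, and in the heavy polysome library 5.75 (RPL26) to 7546 (RPL10) with a median of 2497. The leading member therefore changed in every pool. RPL29, RPL13 and RPL37A led the free library, and RPL10, RPL8 and RPL5 led the heavy polysome library. At the low end, RPL26 had 97 counts over all libraries, RPL22 had 312 and RPL21 had 1622, while every other member had at least 6575.

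**Figure D1:**
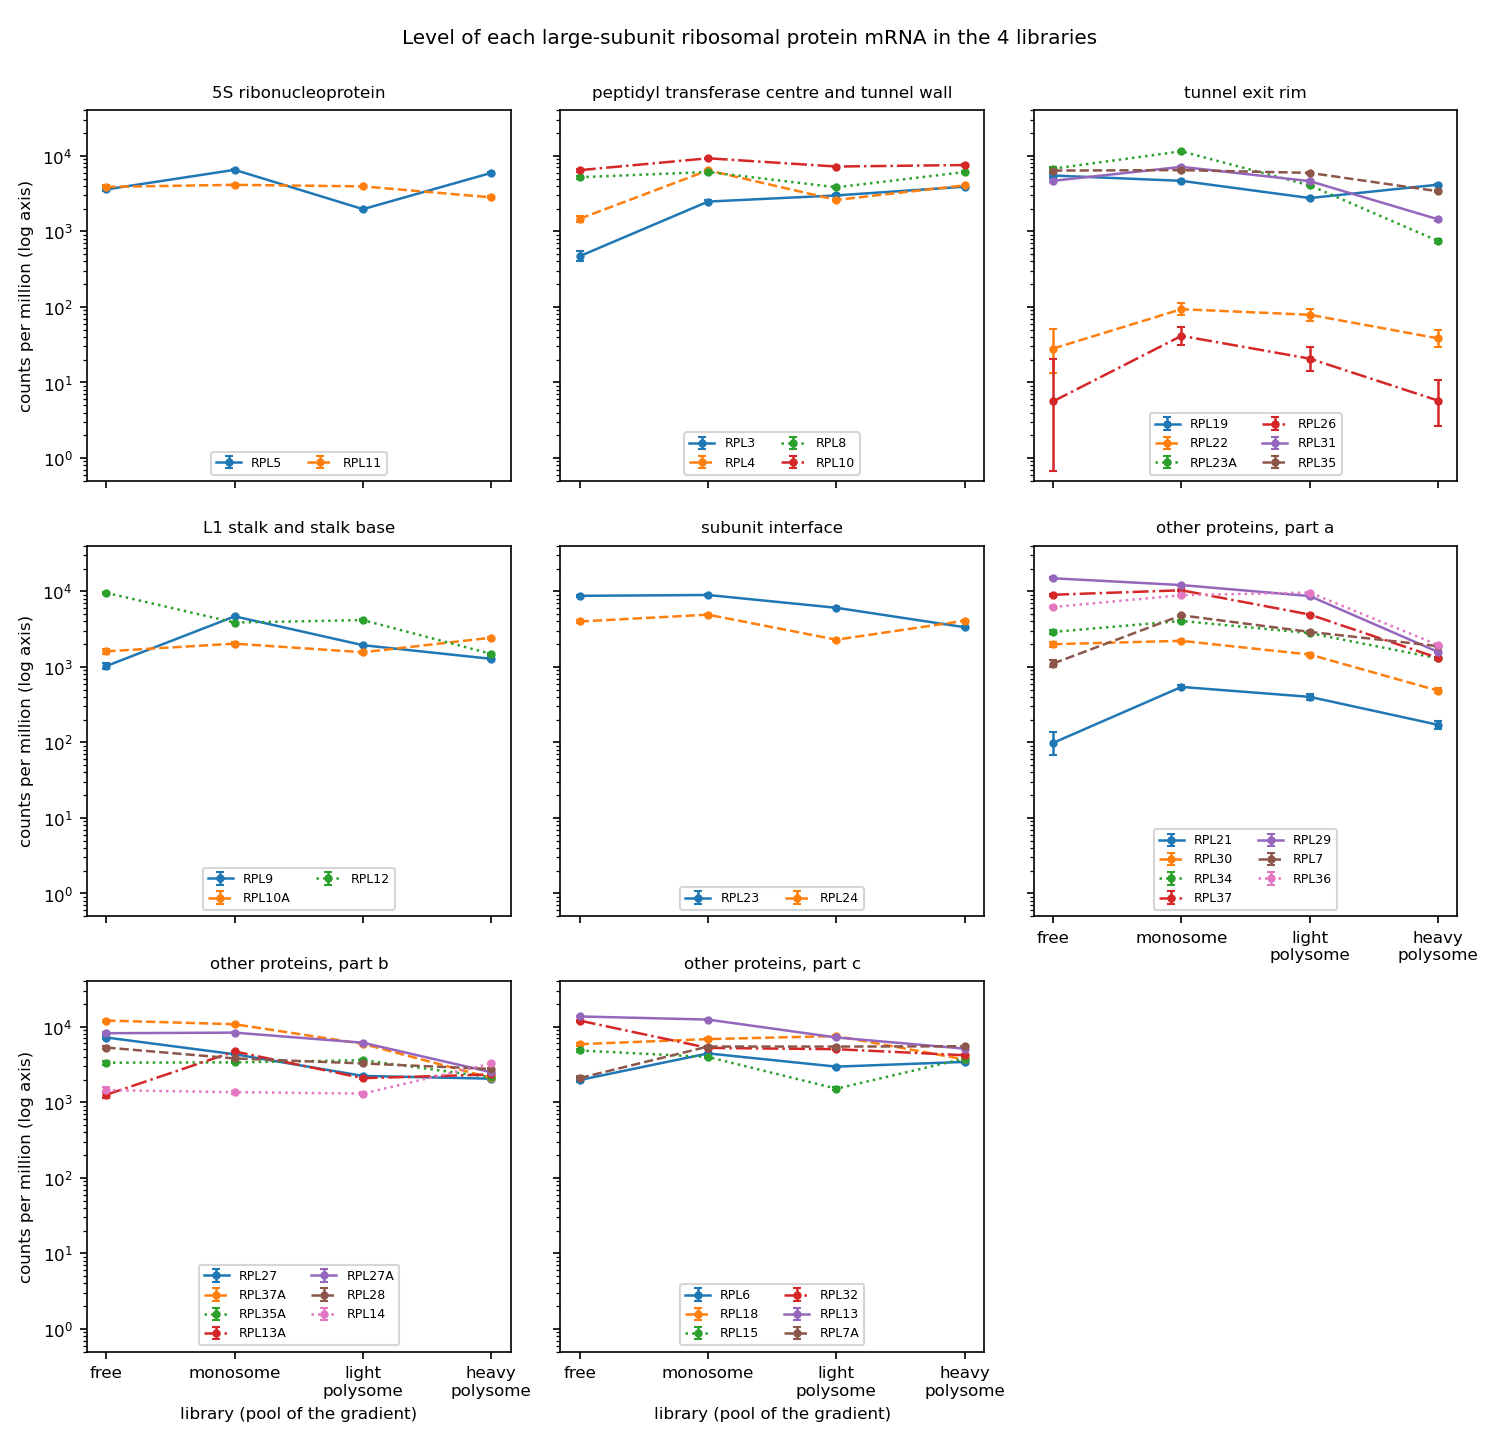
Level in CPM of each of the 37 members (log axis) in the free, monosome, light polysome and heavy polysome libraries, with members grouped by their place in the subunit and the 20 other proteins split over 3 panels by their heavy polysome level. Points are single libraries and bars are 95% Clopper-Pearson intervals (counting error only). RPL3 rises at every step, RPL29 falls from 14852 to 1572, RPL5 dips in the light polysome library, and RPL26 and RPL22 lie far below the rest.

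To compare pools, the share of each gene in one library was divided by its share in another, after 0.5 was added to each count. The log2 of this ratio is given relative to the median of the 7527 genes with at least 30 counts over the 4 libraries. For the median gene the share in heavy polysomes was 8.26 times that in the free library (a log2 of 3.05). The median level of the 7527 genes in the free library was only 2.81 CPM, below the 8.44 CPM that 3 counts make there. This reference thus rests on few counts. Its log2 was 2.70 with nothing added to the counts (5170 genes), 2.51 with 1 added, 2.18 with a floor of 3 counts and 1.92 with no minimum count. The counting intervals do not cover such shifts. A gene was called lower or higher where it lay at least 2-fold from the median gene and its 95% counting interval excluded it.

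Relative to the median gene, nearly all members lay lower in the heavy polysome than in the free library. Of the 37 members 35 were called lower and none higher, against 15.3% of all tested genes called lower and 6.36% called higher. In all 36 members lay below the median gene, as did 49.9% of tested genes. Among the 571 tested genes with at least 1000 counts that code for no ribosomal protein, a comparison set chosen after the data were seen, 51.7% were called lower. The median of the members was -3.51 (-4.43 to -2.82, an order-statistic interval that takes members as independent draws), while these 571 genes had a median of -1.08. The members that were not called lower were RPL3 and RPL26, and RPL26 had only 2 counts in the free library. By library totals alone 22 of the 37 members had a lower share in heavy polysomes than in the free library, the median was -0.46, and 14 members were called lower and 4 higher. The members spread over 6.29 log2 units.

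Of the 4 members at the catalytic core and the tunnel wall, RPL3 and RPL4 were the highest of all members, while RPL8 and RPL10 lay further down the order. RPL3 (chromosome 22, 39312882 to 39320389), whose loop reaches toward the peptidyl transferase centre, had a CPM of 469.7 in the free, 2477 in the monosome, 2989 in the light polysome and 3899.6 in the heavy polysome library. It lay at 0.00 (-0.21 to 0.24), level with the median gene at the minimum of 30 counts. That interval leaves out shifts of the median gene between settings. With no minimum count RPL3, the highest member, was the only one called higher. RPL4 (chromosome 15, 66498015 to 66524532), which lines the exit tunnel with a long loop, had 1468, 6419, 2607 and 4061 CPM. RPL4 was high in the monosome library and lay at -1.58 (-1.71 to -1.45). RPL10 (chromosome X, 154389955 to 154409168), which joins the subunit last and reaches the P site, had 6453, 9267, 7210.2 and 7546 CPM and lay at -2.82 (-2.88 to -2.75). Of its exonic bases 34.2% are shared with exons of DNASE1L1 in the annotation when strand is ignored. Its count may thus depend on how such reads were assigned, and the strand setting is not stated. RPL8, which also lies close to the catalytic centre, was at -2.82 (-2.89 to -2.75).

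RPL5 and RPL11 bind the 5S rRNA as one particle, which also restrains the p53 regulator MDM2. Their mRNAs did not share a profile. RPL5 (chromosome 1, 92831983 to 92841924) had 3589, 6519.8, 1967 and 5938 CPM from free to heavy polysome, with its lowest value in the light polysomes. RPL11 was close to level over the first 3 libraries (3876, 4128 and 3936 CPM) and had 2817 CPM in the heavy polysome library. RPL5 lay at -2.32 (-2.40 to -2.23) and RPL11 at -3.51 (-3.59 to -3.42), a difference of 1.19 (1.07 to 1.31).

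The proteins at the rim of the exit tunnel, where nascent chains leave the ribosome, differed widely. RPL23A (chromosome 17, 28719393 to 28724359), a docking site for factors that meet the nascent chain, had 6759, 11459.9, 4059 and 746 CPM. Only RPL21, RPL22, RPL26 and RPL30 had a lower level in the heavy polysome library. RPL23A lay at -6.22 (-6.33 to -6.12). RPL35 (chromosome 9, 124857880 to 124861981), which binds beside it, had 6374, 6465, 5940.4 and 3391 CPM and lay at -3.96 (-4.03 to -3.88). RPL31 lay at -4.74 (-4.83 to -4.65) and RPL19, which also bridges to the small subunit, at -3.45 (-3.52 to -3.37). RPL22 lay at -2.66 (-3.58 to -1.47) on 10 counts in the free library. RPL26 (chromosome 17, 8377516 to 8383250), with 2, 55, 31 and 9 counts, lay at -3.26 (-5.29 to 0.24), an interval too wide to place it.

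Among the proteins of the lateral protrusions, RPL12 stood apart. RPL12 (chromosome 9, 127447674 to 127451405), which forms the base on which the stalk sits, had 9519 CPM in the free library, 3855 in the monosome, 4149 in the light polysome and 1481 in the heavy polysome library. It was highest in the free library, and lay at -5.73 (-5.81 to -5.65). RPL9, its neighbour near the stalk base, lay at -2.73 (-2.89 to -2.56), and RPL10A, the protein of the L1 stalk that guides tRNA out of the ribosome, at -2.45 (-2.58 to -2.32). At the subunit interface, where the anti-association factor eIF6 binds, RPL23 (chromosome 17, 38847865 to 38853843) had 8697, 8920.3, 6041 and 3342 CPM and lay at -4.43 (-4.49 to -4.36). RPL24 lay higher, at -3.01 (-3.10 to -2.93).

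The remaining 20 members, grouped as scaffold and solvent-side proteins, were all called lower, with a median of -4.10. RPL29 (chromosome 3, 51993522 to 51995942), a basic protein also known for binding heparin, had 14852, 12073, 8635 and 1572 CPM and was the lowest of all members at -6.29 (-6.36 to -6.22). The zinc-binding proteins RPL37 and RPL37A followed at -5.82 (-5.90 to -5.74) and -5.57 (-5.63 to -5.50), RPL37 (chromosome 5, 40825262 to 40835335) with 8987, 10304, 4914 and 1310.3 CPM. RPL30, which also binds the selenocysteine element of other mRNAs, lay at -5.09. Between -4.86 and -4.21 were RPL27, RPL27A, RPL36, RPL32, RPL13 and RPL34. RPL13 (chromosome 16, 89560657 to 89566828), the most counted member with 40187 counts over the libraries, had 13673, 12419.7, 7204 and 5123 CPM and lay at -4.46 (-4.51 to -4.41). RPL28 lay at -3.99, RPL18 at -3.72, RPL35A at -3.69 and RPL15 at -3.40. Nearest the median gene were RPL7 at -2.28, RPL21 at -2.27, RPL6 at -2.25, RPL13A at -2.16 (a protein that can leave the ribosome to silence inflammatory mRNAs), RPL14 at -1.87 and RPL7A at -1.65. RPL7A (chromosome 9, 133348214 to 133351426) had 2093, 5464, 5454 and 5513 CPM, so its level was nearly even over the 3 pools with ribosomes.

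**Figure D2:**
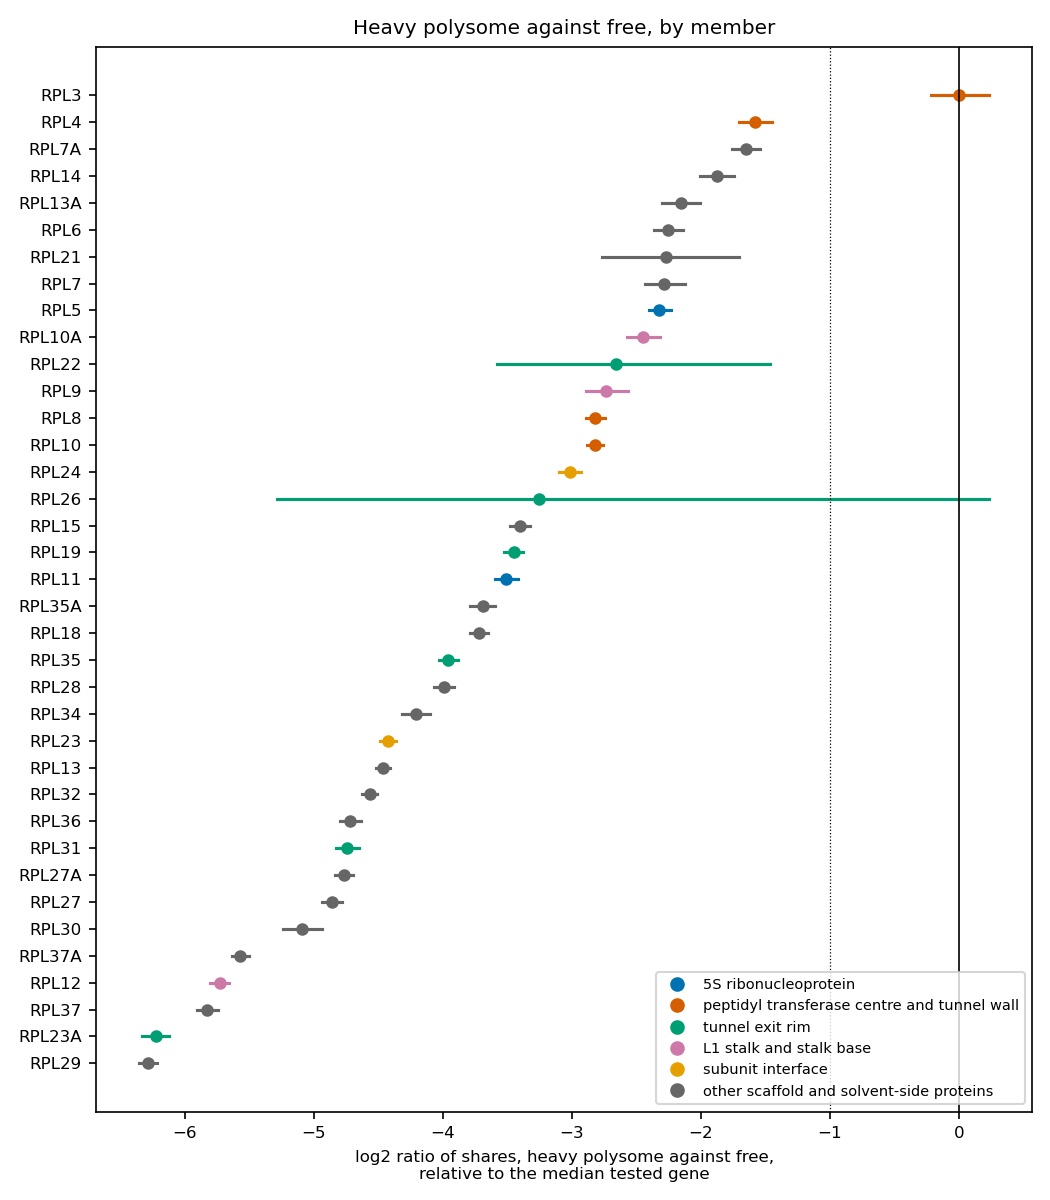
Log2 ratio of shares, heavy polysome against free library, relative to the median tested gene (solid line at 0), for the 37 members in order. Points are single estimates from 1 library per pool and bars are 95% counting intervals. Colours give the place in the subunit and the dotted line marks 2-fold lower. RPL29 and RPL23A lie lowest and RPL3 lies on the line of the median gene.

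Most differences between single members were larger than counting error. Of the 666 pairs, 591 had an interval of the difference that excluded 0 (Wald intervals on the log scale), and 420 of these were at least 2-fold apart. Neighbours in the order were often not separated: 22 of the 36 neighbouring pairs had an interval that included 0. RPL29 and RPL23A differed by 0.06 (-0.06 to 0.18), RPL10 and RPL8 by 0.00 (-0.09 to 0.10), and RPL7A and RPL4 by 0.07 (-0.10 to 0.24). The gap between RPL4 and RPL3 was 1.58 (1.33 to 1.84) and was the only one between neighbours of at least 2-fold. When heavy polysomes were set against monosomes instead, the ends of the order were in part other members. RPL23A was then lowest at -5.68, RPL37 lay at -4.72 and RPL29 at -4.68, while RPL14 was highest at -0.48 and RPL3 lay at -1.09.

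The first step, from free to monosome, separates mRNA without a ribosome from mRNA with a single one. Of the members 28 lay below the median gene here, against 47.9% of all tested genes, with a median of -1.04 (-1.24 to -0.65), but by library totals alone it was 0.23. Of the 37 members 19 were called lower and 2 higher, against 4.57% and 5.13% of all tested genes, and against 12.6% and 15.4% of the 571 abundant other genes. The balance of these calls turned with the setting: 2 members were called lower and 10 higher by library totals alone, 4 and 8 with no minimum count or with a floor of 3 counts, 13 and 5 with TMM scaling, and 22 and 1 after thinning to the shallowest library. RPL12 lay lowest at -2.57 (-2.63 to -2.51). RPL32 (chromosome 3, 12834485 to 12841588) followed at -2.47 (-2.52 to -2.41), with 12031 CPM in the free library and 5237, 5041 and 4190.4 CPM in the others. RPL27 (chromosome 17, 42998273 to 43002959) lay at -2.00 (-2.07 to -1.94), with 7195, 4318, 2230.2 and 2049.8 CPM. After this step RPL32 stayed nearly level, while RPL27 and RPL12 each had a further drop. At the other end, RPL3 lay at 1.13 (0.91 to 1.36) and RPL21 at 1.17 (0.70 to 1.73), and both were called higher. RPL26 lay at 1.30 (-0.31 to 4.69) and was not called. RPL21 (chromosome 13, 27251309 to 27256691) had 98.5, 542, 400.2 and 171 CPM, with 35 counts in the free library. RPL9 (0.92), RPL4 (0.86), RPL7 (0.85) and RPL13A (0.64) were also above the median gene without being called.

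The second step, from monosome to light polysome, was the one in which the members moved most alike. All 37 lay below the median gene, where 50% of all tested genes did, and 31 were called lower and none higher. Of all tested genes 16.3% were called lower and 14.9% higher, and of the 571 abundant others 20.1% and 13.5%. The fall was not particular to the members. All 30 tested small-subunit protein mRNAs lay below the median gene, with 26 called lower, none higher and a median of -1.77. All 13 tested non-ribosomal TOP mRNAs did too, with 10 called lower and none higher. The median of the members was -1.55 (-1.74 to -1.35), and they ran from RPL5 at -2.71 (-2.77 to -2.65) to RPL3 at -0.71 (-0.78 to -0.65). RPL23A lay at -2.48 and RPL15 at -2.38 (-2.45 to -2.31). RPL15 (chromosome 3, 23916545 to 23924374) had 4844 CPM in the free, 3975 in the monosome, 1511 in the light polysome and 3791 in the heavy polysome library. Besides RPL3, the members not called were RPL18, RPL36, RPL12, RPL35A and RPL7A, which lay between -0.99 and -0.85. By library totals alone the median was -0.56, and 8 members were called lower and 0 higher.

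The third step, from light to heavy polysome, spread the members over a wider range. Of the 37 members 21 were called lower and 1 higher. The share called lower was near that of abundant mRNAs, and the share called higher was below theirs: 53.9% of the 571 abundant other genes were called lower, and 19.8% higher, while of all tested genes 28.3% were called lower and 26% higher. The median was -1.19 (-1.62 to -0.58), and the median of the 571 genes was -1.15. By library totals alone the median was -0.60, with 14 members called lower and 3 higher. RPL29 lay at -3.05 (-3.11 to -2.99), RPL23A at -3.03 (-3.13 to -2.94) and RPL36 at -2.90 (-2.95 to -2.84). RPL36 (chromosome 19, 5674947 to 5691876) had 6183, 8869.9, 9613 and 1943 CPM, so it was the most counted member of the light polysomes and below the median member in the heavy ones. Exons of HSD11B1L and LONP1 share 19.5% of its exonic bases. At the other end, RPL5 lay at 1.00 (0.94 to 1.06), at the limit of the call, and with a minimum of 10 counts no member was called higher. RPL15 lay at 0.74 (0.67 to 0.81) and RPL14 at 0.73 (0.66 to 0.81). RPL14 (chromosome 3, 40457292 to 40468587) had 1449, 1360.1, 1303 and 3266 CPM, level in the first 3 pools and high in the heavy polysomes alone.

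**Figure D3:**
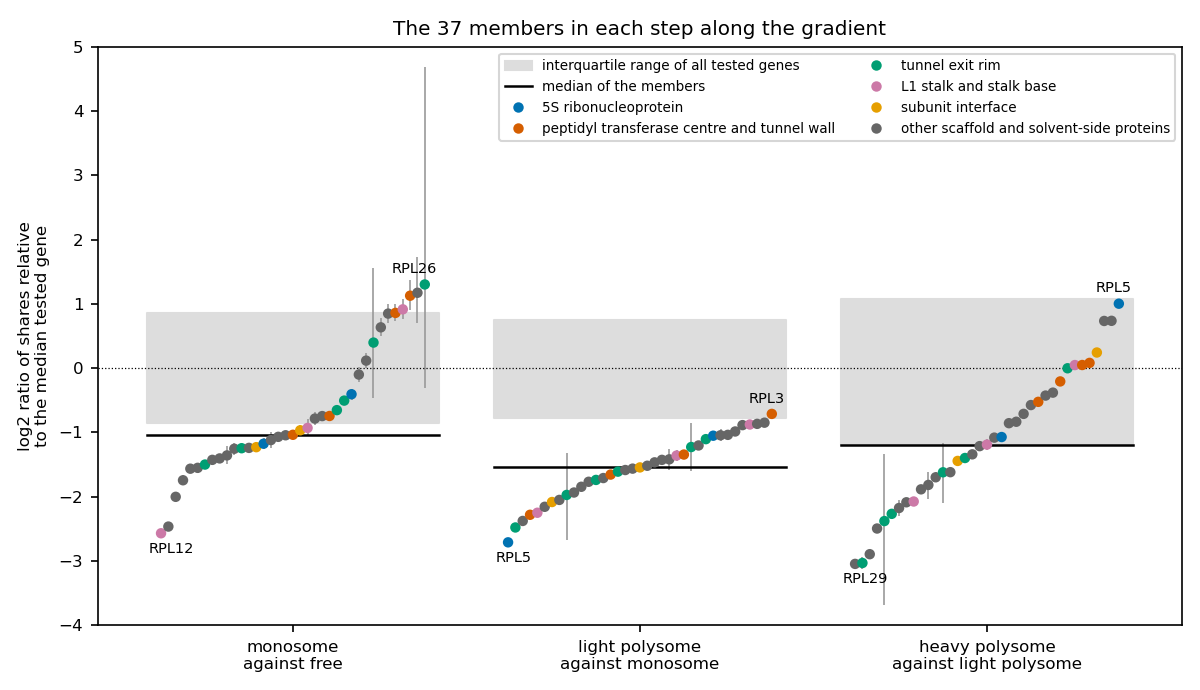
Log2 ratio of shares relative to the median tested gene (dotted line at 0) in the 3 steps along the gradient, for the 37 members sorted within each step. Points are single estimates from 1 library per pool, coloured by place in the subunit, and grey lines are 95% counting intervals. Black lines are the members' medians and grey boxes the interquartile range of all 7527 tested genes. All members lie below 0 from monosome to light polysome, and they range from -3.05 (RPL29) to 1.00 (RPL5) from light to heavy polysome.

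Followed over all 4 libraries in CPM, the members fell into several shapes, which were looked for after the values had been seen. The highest level was in the free library for 9 members, in the monosome library for 21, in the light polysome library for 3 (RPL18, RPL35A and RPL36) and in the heavy polysome library for 4 (RPL3, RPL7A, RPL10A and RPL14). Among all tested genes these shares were 1.3%, 7.44%, 30% and 61.3%, and among the 571 abundant other genes they were 2.1%, 13.8%, 45% and 39.1%. Levels with counting intervals apart at every step fell from free to heavy polysome in 5 members (RPL13, RPL27, RPL28, RPL29 and RPL37A), as in 0.239% of tested genes and 0.701% of the abundant ones. RPL3 alone rose at every step, as 2.44% of tested genes and 12.4% of the abundant ones did.

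A dip in the light polysomes was seen in 10 members. RPL4, RPL5, RPL6, RPL8, RPL10, RPL10A, RPL13A, RPL15, RPL19 and RPL24 had a lower CPM there than in both the monosome and the heavy polysome library, with counting intervals apart. Of all tested genes 1.65% had this shape, and of the 571 abundant other genes 4.2%. The summed share of 14 non-ribosomal TOP mRNAs also dipped, with 3.25% in monosomes, 1.32% in light and 2.62% in heavy polysomes. That of 32 small-subunit protein mRNAs fell (26.7%, 13.8% and 7.10%), and so did that of the 37 members themselves (20.7%, 14.1% and 10.4%). Single genes with a dip were not counted among the non-ribosomal TOP or the small-subunit mRNAs, so the count of members has no like value there. RPL5 had 1967 CPM there, against 6519.8 and 5938 on either side, and RPL15 had 1511 against 3975 and 3791. The opposite shape, a light polysome level above both neighbours, was seen in RPL12, RPL18, RPL35A and RPL36, and in 13.4% of tested genes and 40.1% of the abundant ones. RPL18 (chromosome 19, 48615328 to 48619536) had 5876, 6853, 7522 and 3685 CPM. With 1 library per pool, whether the dip would be seen again was not tested.

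The place of a member between light and heavy polysomes went with the length of its protein. The proteins run from 92 residues (RPL37A) to 427 (RPL4), with a median of 160. Across the 37 members Spearman's rho between length and log2 ratio was 0.70 for heavy against light polysome and 0.73 for heavy polysome against free. For the first 2 steps it was 0.35 and -0.11. Across 3876 other tested genes with proteins of the same range of lengths rho was 0.44 for heavy against light polysome and 0.40 for heavy polysome against free. These values are across genes of the same libraries, which are not independent replicates, and the members share their high abundance. The other genes were not matched to them in level. In the light polysome library the median was 24.7 CPM over all tested genes and 3263 CPM over the members. The values of rho therefore cannot be compared like for like. The 15 members under 150 residues had a median of -1.70 from light to heavy polysome and none lay above -0.71. The 13 members of at least 200 residues had a median of -0.21, between -1.21 (RPL7) and 1.00 (RPL5).

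Other mRNAs that code for short proteins lay as low in that step. The 489 other tested genes with at least 92 and under 150 residues had a median of -1.86, below that of the short members. In heavy polysome against free the short members had a median of -4.57 and these 489 genes one of -2.14, while the long members lay at -2.28 and the 2828 other genes of 200 to 427 residues at 0.15. Length did not order all members: RPL24 (157 residues) lay at 0.24 in the step from light to heavy polysome, while RPL29 (159 residues) lay at -3.05 and RPL23A (156 residues) at -3.03.

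**Figure D4:**
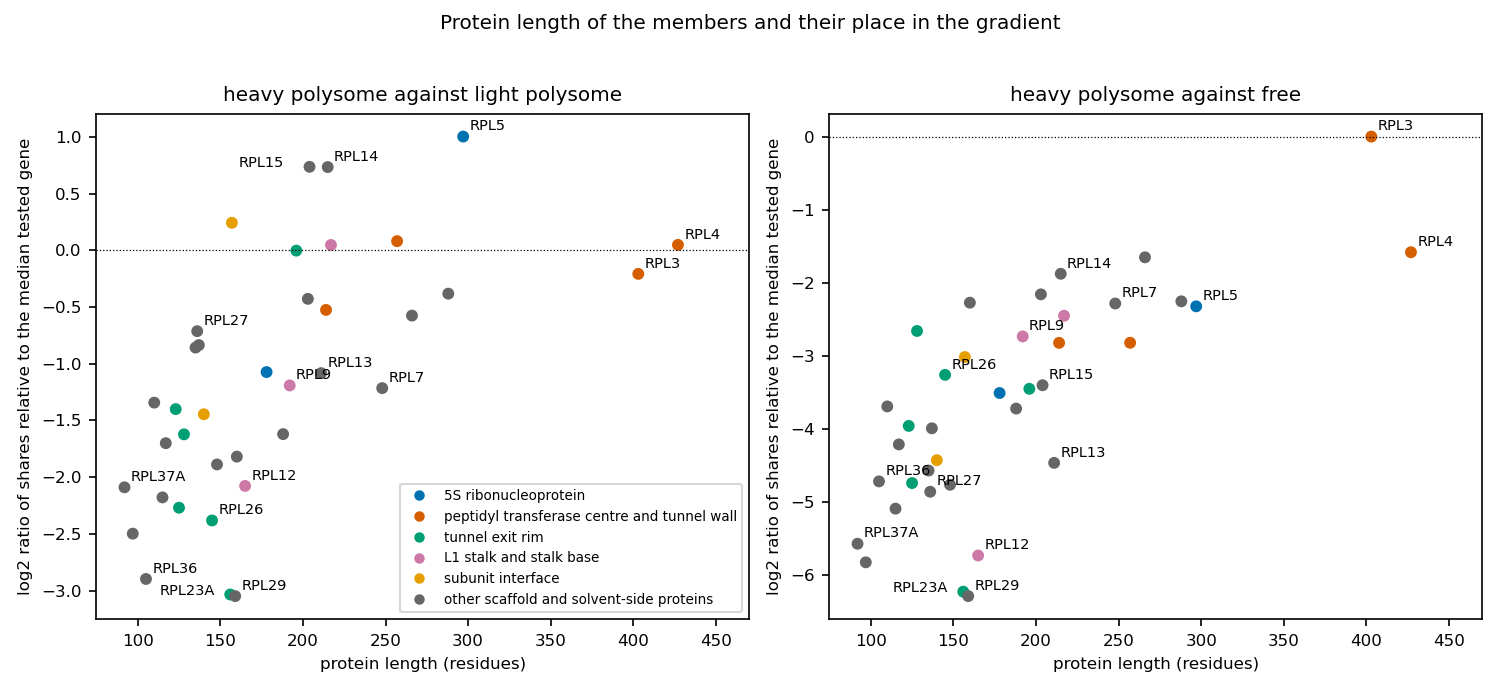
Protein length in residues (x axis) against the log2 ratio of shares relative to the median tested gene (y axis) for heavy against light polysome (left) and heavy polysome against free (right), 1 point for each of the 37 members, coloured by place in the subunit. Members under 150 residues all lie at or below -0.71 on the left. RPL29 and RPL23A lie lowest at their length in both panels.

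The other genes of the ribosome and its assembly, from lists chosen with earlier results of these data known, give the setting. Of the 32 small-subunit proteins 30 were tested, and 29 were called lower in heavy polysome against free, with a median of -4.53. The most counted of them, RPS2, lay at -7.95, below every member. The 14 non-ribosomal TOP mRNAs, of which 13 were tested, had 5 called lower and 2 higher and a median of -0.91 (EEF1A1, the elongation factor, at -0.99), although in the step from monosome to light polysome their median (-2.22) was below that of the members (-1.55). Assembly factors of the large subunit, whose mRNAs are not TOP mRNAs, had 0 of 16 tested called lower and 5 called higher, with a median of 0.87 (EBNA1BP2 at 1.93). The 18 factors on this list had only 49 counts together in the free library, where the members had 65631. Their ratios and calls thus rest on few counts and cannot be set beside those of the members like for like. Of 46 tested mitochondrial large-subunit proteins 23 were called lower and 5 higher, with a median of -1.02 (MRPL51 at -5.67). No test of these differences between lists was made.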

How the data were processed

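The authors deposited unscaled whole-number read counts for each gene in 4 direct RNA libraries. The submitters' processing notes name minimap2 2.15, featureCounts from Subread 1.6.2 and hg38. The counted annotation, the strand setting and the handling of multi-mapping reads are not stated in these notes or the labels, so members with many near-identical copies are uncertain.

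Computed here were CPM, log2 ratios of shares (0.5 added to each count, genes with at least 30 counts, all 37 members included) relative to the median tested gene, and exact binomial (Clopper-Pearson) 95% counting intervals. Because no pool has a replicate, edgeR's quasi-likelihood test could not be fitted and no p-value is given. The calling step was tested on simulated counts drawn from the pooled composition of the 4 libraries, with changes set only in genes with at least 1000 counts. The simulation held counting error alone, so it does not test the calls against variation between libraries or in thinly counted genes. Coordinates, exon overlaps and protein lengths (of the principal transcript) came from GENCODE release 29 on hg38, which may not be the annotation the authors counted against. Exon overlaps were taken without regard to strand. Lengths were found for all members and 7427 other tested genes. Start-site sequences came from RefSeq.

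The members, the gene lists and the rule for named genes were chosen with earlier results of these data known. The rule gives all 4 libraries for the 3 highest and 3 lowest members of each comparison, the 3 most counted members and the most counted member of each group by place in the subunit. Alternatives were other minimum counts, pseudocounts, scaling with edgeR 4.0.16 (TMM) and DESeq2 1.42.0 (size factors), a floor of 3 counts and thinning. Python 3.11.15, numpy 2.4.6, pandas 2.3.3, scipy 1.17.1, matplotlib 3.10.9 and R 4.3.3 were used. A list of further large-subunit genes is not reported here.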

Additional observations from a re-analysis of the deposited data

How the results depend on the processing

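In light against monosome, heavy against light and heavy polysome against free the members' median stayed below 0 in every setting, and it reversed in monosome against free by library totals alone. That setting takes no account of the median gene and so adds a constant to each comparison. In monosome against free it gave a median of 0.23 with 2 members called lower and 10 higher, in light polysome against monosome -0.56 with 8 and 0, in heavy against light polysome -0.60 with 14 and 3, and in heavy polysome against free -0.46 with 14 and 4. It also turned single called members: in monosome against free RPL8 (0.23), RPL11 (0.0903), RPL18 (0.22), RPL23 (0.0363), RPL27A (0.0252), RPL30 (0.15), RPL35 (0.0202), RPL35A (0.0115) and RPL37 (0.20), and in heavy polysome against free RPL4 (1.47), RPL5 (0.73), RPL6 (0.79), RPL7 (0.76), RPL7A (1.40), RPL8 (0.23), RPL9 (0.31), RPL10 (0.23), RPL10A (0.60), RPL13A (0.89), RPL14 (1.17), RPL21 (0.78), RPL22 (0.39) and RPL24 (0.0319). Monosome against free depended most on the setting: with no minimum count 4 members were called lower and 8 higher (median -0.35), with a floor of 3 counts 4 and 8 (-0.45), with a pseudocount of 1 there were 9 and 6, and thinning moved the median to -1.25. In heavy polysome against free the median was -2.38 with no minimum (32 members called lower and 1, RPL3, higher). With the floor it was -2.64 (33 and 0). Of 1476 values of single members under these settings 1281 kept their call, 172 changed it without turning from a called value to the other side, and 23 turned. Over all tested genes the calls in heavy polysome against free were 479 higher and 1152 lower, against 931 and 943 with TMM, 795 and 992 with DESeq2 and 5458 and 227 by totals. In monosome against free they were 386 and 344, against 551 and 248 with TMM, 455 and 310 with DESeq2 and 2048 and 60 by totals. By totals the splits were 3310 and 278 in light polysome against monosome (1125 and 1226 with the median gene as reference) and 2958 and 1349 in heavy against light polysome (1959 and 2131). Over the settings other than scaling, genes called higher and lower ran from 214 to 1063 and 146 to 440 in monosome against free, 701 to 1532 and 671 to 1309 in light polysome against monosome, 1284 to 2405 and 1292 to 2455 in heavy against light polysome, and 393 to 1842 and 785 to 1152 in heavy polysome against free. Depth limits RPL26, RPL22 and RPL21 in the free library (2, 10 and 35 counts). No paired analysis was possible because each pool has 1 library.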

Other observations

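The thinly counted members carry many annotated copies, but so do well counted ones. GENCODE names 66 pseudogenes after RPL21, 22 after RPL22 and 14 after RPL26, whose counts over the 4 libraries were 1622, 312 and 97. RPL23A has 91 such pseudogenes, RPL7 has 61 and RPL12 has 50, with 24890, 14056 and 17046 counts. Exons of other coding genes cover 14.3% of the exonic bases of RPL26 and 10.1% of those of RPL22, and none of those of RPL21. The part of these copies in the counts was not tested.

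Paralogues of the members were counted at low levels. RPL26L1 had 48, 276, 583 and 258 counts from free to heavy polysome, more than RPL26 in each library. RPL22L1, with 40, 267, 186 and 50 counts, exceeded RPL22 (10, 124, 118 and 60) in all but the heavy polysome library. The low counts of RPL26 and RPL22 may depend on how multi-mapping reads were handled, so these counts do not show which gene is expressed more. RPL7L1 had 4, 46, 139 and 352 counts and lay at 1.11, not called, in heavy polysome against free, while RPL7 lay at -2.28. RPL3L and RPL10L, paralogues of RPL3 and RPL10 known from muscle and testis, had 1 and 5 counts in all.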
